A study of Mus musculus with 2 samples.

Results

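Genes of cytokines and their receptors, 10 in all, were read out in sorted spinal microglia: the ligands Il1a, Il1b, Tnf and Il10 and the receptor chains Il10ra, Il10rb, Il6ra, Il6st, Tnfrsf1a and Tnfrsf1b. They were chosen by symbol and make up 10 of the 32285 genes in the count tables. The study was single-cell RNA sequencing of spinal cord microglia from male mice aged 8 to 10 weeks, with 1 library per genotype. Control mice were labelled WT and are Eif4ebp1 fl/fl in the study's description. The 4E-BP1-cKO mice are Eif4ebp1 fl/fl:TMEM119 CreERT2, in which a tamoxifen-inducible Cre under the microglial Tmem119 promoter deletes the translational repressor 4E-BP1. Treatment with 4-OHT from P4 to P9 is recorded for the mice of both libraries. Tissue was digested with collagenase IV at 37 °C, and cells were gated as CD45lo CD11b hi CX3CR1 hi before capture. How many mice went into each library is not stated in the sources used here. With 1 library per genotype there is no replicate check, and no test was made between the libraries. All intervals are 95% and cover counting error only.

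IL-1α and IL-1β are the agonists of the IL-1 receptor, and TNF acts through the receptors encoded by Tnfrsf1a, the broadly expressed death-domain receptor, and Tnfrsf1b, which is most prominent on immune cells. In microglia these 3 ligands are the classical pro-inflammatory cytokines, and their mRNAs are short-lived and quickly induced. IL-10 is the main anti-inflammatory cytokine of macrophages and binds Il10ra, the ligand-binding chain, together with Il10rb, which other cytokines of the IL-10 family also use. Il6ra binds IL-6, and Il6st encodes the signal-transducing chain shared by the IL-6 family.

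The genes lie at separate loci except for the IL-1 pair. In GRCm38.p6, Il1a (ENSMUSG00000027399) spans chr2:129299609-129310186 and Il1b (ENSMUSG00000027398) spans chr2:129364569-129371164, both on the minus strand and 54382 bases apart. Tnf (ENSMUSG00000024401) is at chr17:35199367-35202007 and Il10 (ENSMUSG00000016529) at chr1:131019845-131024970. Il10ra (ENSMUSG00000032089) is at chr9:45253837-45269149, Il10rb (ENSMUSG00000022969) at chr16:91406157-91425834 and Il6ra (ENSMUSG00000027947) at chr3:89869324-89913196. Il6st (ENSMUSG00000021756) is at chr13:112464070-112506860, Tnfrsf1a (ENSMUSG00000030341) at chr6:125349723-125362483 and Tnfrsf1b (ENSMUSG00000028599) at chr4:145212368-145246870.

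RefSeq promoters were matched for 7 of the 10 genes, and not for Il10, Il10ra and Il10rb. The 80 bases before the transcription start separated the 3 pro-inflammatory ligands from the matched receptors. For Il1a and Il1b the start used lies inside the gene span given above, so the stretch overlaps that span. Each of the 3 pro-inflammatory ligands carries TATAAA, the core of a TATA box, on the gene strand, beginning 32 bases before the start in Il1a, 31 in Il1b and 29 in Tnf. The receptors Il6ra, Il6st, Tnfrsf1a and Tnfrsf1b have 0 matches in the same window. Over all 32851 RefSeq promoters 3.37% have one. The 3 ligand stretches and, for contrast, that of Tnfrsf1a are shown 5′ to 3′ on the gene strand, with the matched letters in capitals, for Il1a at chr2:129309973-129310052 (minus), Il1b at chr2:129371140-129371219 (minus), Tnf at chr17:35202008-35202087 (minus) and Tnfrsf1a at chr6:125349643-125349722 (plus).
Il1a: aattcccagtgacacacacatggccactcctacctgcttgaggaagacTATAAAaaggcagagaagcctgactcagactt
Il1b: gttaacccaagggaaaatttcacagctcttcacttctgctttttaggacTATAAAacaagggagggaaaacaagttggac
Tnf: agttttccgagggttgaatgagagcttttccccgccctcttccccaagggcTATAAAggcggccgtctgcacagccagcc
Tnfrsf1a: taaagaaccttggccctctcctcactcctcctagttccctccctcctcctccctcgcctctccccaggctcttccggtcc
The AP-1 motif TGANTCA, searched on both strands over 250 bases, was present in Il1a only among the 7, 12 bases before the start, against 6.75% of all promoters. A match is a description of these letters and not of a bound site.

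The control library held 1147 cells after filtering, of 1216 barcodes, and the 4E-BP1-cKO library 445 of 474, with a median of 3053 and 2776 UMIs per cell and 0 barcodes in common. At least 3 of 10 microglial markers were detected in 94.7% of control and 91.7% of 4E-BP1-cKO cells. These cells carried 97.8% to 99.3% of the UMIs of Il1a, Il1b and Tnf and 89.1% and 89.7% of those of Il10. No cell of either library held 3 markers of neutrophils, monocytes, NK cells, B cells, astrocytes or neurons. Neutrophils, a known source of IL-1β, had summed markers at 1.46 CPM (UMIs per 1000000 UMIs of the library) in the control and 5.77 CPM in the 4E-BP1-cKO library, with Ly6g and Retnlg at 0. The 12 control cells with 3 oligodendrocyte markers held 6.60% of the Il1b UMIs of that library, and the 1 such 4E-BP1-cKO cell held 0. Cells with 3 microglial markers held 98.8% of the control Il1b UMIs, so most of that 6.60% lay in cells with both sets of markers. Tmem119, whose promoter drives the Cre, was at 433 CPM in the control and 142 CPM in the 4E-BP1-cKO library. Eif4ebp1 itself was at 19.8 CPM (16.0 to 24.2) and 29.4 CPM (21.9 to 38.7). Counts at the 3′ end do not tell a deleted from an intact transcript, so this does not check the deletion, and directions between the libraries rest on the labels alone.

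Il1a, IL-1α, was found in most cells of both libraries. The control library held 2506 UMIs, or 522 CPM (501 to 543), with a UMI in 54.1% of cells (51.1% to 57.0%). The 4E-BP1-cKO library held 1304 UMIs, or 752 CPM (712 to 794), in 60.7% of cells (56.0% to 65.2%). The level was higher in the 4E-BP1-cKO library, while the intervals of the shares overlapped, which does not show that the shares were alike. No cell held more than 48 Il1a UMIs in the control or 30 in the 4E-BP1-cKO library.

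Tnf was also widespread. It was at 312 CPM (296 to 328) from 1498 UMIs in the control and at 460 CPM (428 to 493) from 797 UMIs in the 4E-BP1-cKO library. A Tnf UMI was present in 45.7% of control and 47.6% of 4E-BP1-cKO cells. As for Il1a, the levels differed between the libraries beyond counting error, while the intervals of the shares overlapped. Unlike those of Il1a, the intervals of the Tnf shares also overlapped after cells were thinned to equal depth.

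Il1b, IL-1β, was found in fewer cells and was the most unevenly spread of the 10 genes. It was at 161 CPM (150 to 173) from 773 UMIs in the control and at 205 CPM (184 to 228) from 356 UMIs in the 4E-BP1-cKO library. A UMI was found in 14.7% (12.7% to 16.9%) and 17.3% (13.9% to 21.1%) of cells. The 10 cells with the most Il1b held 38.6% of its UMIs in the control and 53.1% in the 4E-BP1-cKO library. For Il1a the corresponding shares were 12.4% and 18.7%, and for Tnf 13.4% and 19.8%. The variance of Il1b UMIs over cells was 15.9 and 15.4 times the mean, against 8.69 and 8.35 times for Il1a and 5.95 and 5.88 times for Tnf.

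Il10 was detected in about as many cells as Il1b, and at few UMIs in each. It was at 82.0 CPM (74.1 to 90.5) from 394 UMIs in the control and at 89.4 CPM (75.9 to 105) from 155 UMIs in the 4E-BP1-cKO library. Carriers were 17.9% (15.7% to 20.2%) and 20.2% (16.6% to 24.3%) of cells, and no cell held more than 7 or 5 UMIs. The intervals of both the levels and the shares of Il10 overlapped between the libraries.

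The receptors were present in both libraries at levels that differed little between them. Il10ra was at 256 CPM in the control and 277 CPM in the 4E-BP1-cKO library, with a UMI in 52.5% and 51.0% of cells. Its partner Il10rb was at 124 and 113 CPM, in 31.9% and 29.0% of cells. Both chains together were found in 235 of 1147 and 89 of 445 cells, and both chains with Il10 in 5.67% and 6.74%. Il6ra was at 287 and 259 CPM, in 55.0% and 53.3% of cells. Il6st was at 156 and 165 CPM, in 37.3% and 37.8% of cells, and both IL-6 receptor chains were found together in 25.6% and 25.8%.

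Of the TNF receptors, Tnfrsf1a had the fewest UMIs of the 10 genes, 184 in the control and 77 in the 4E-BP1-cKO library. It was at 38.3 CPM (33.0 to 44.3) and 44.4 CPM (35.0 to 55.5), in 14.3% and 15.1% of cells. Tnfrsf1b was at 117 CPM (108 to 127) in the control and 86.5 CPM (73.2 to 101) in the 4E-BP1-cKO library, in 29.5% and 23.6% of cells. Tnfrsf1b was the receptor whose level differed between the libraries beyond counting error, and it was lower in the 4E-BP1-cKO library. The receptors were spread more evenly than Il1a, Il1b and Tnf, with a variance of 1.09 to 2.48 times the mean, and Il10 lay in the same range at 2.40 and 2.01 times.

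**Figure D1:**
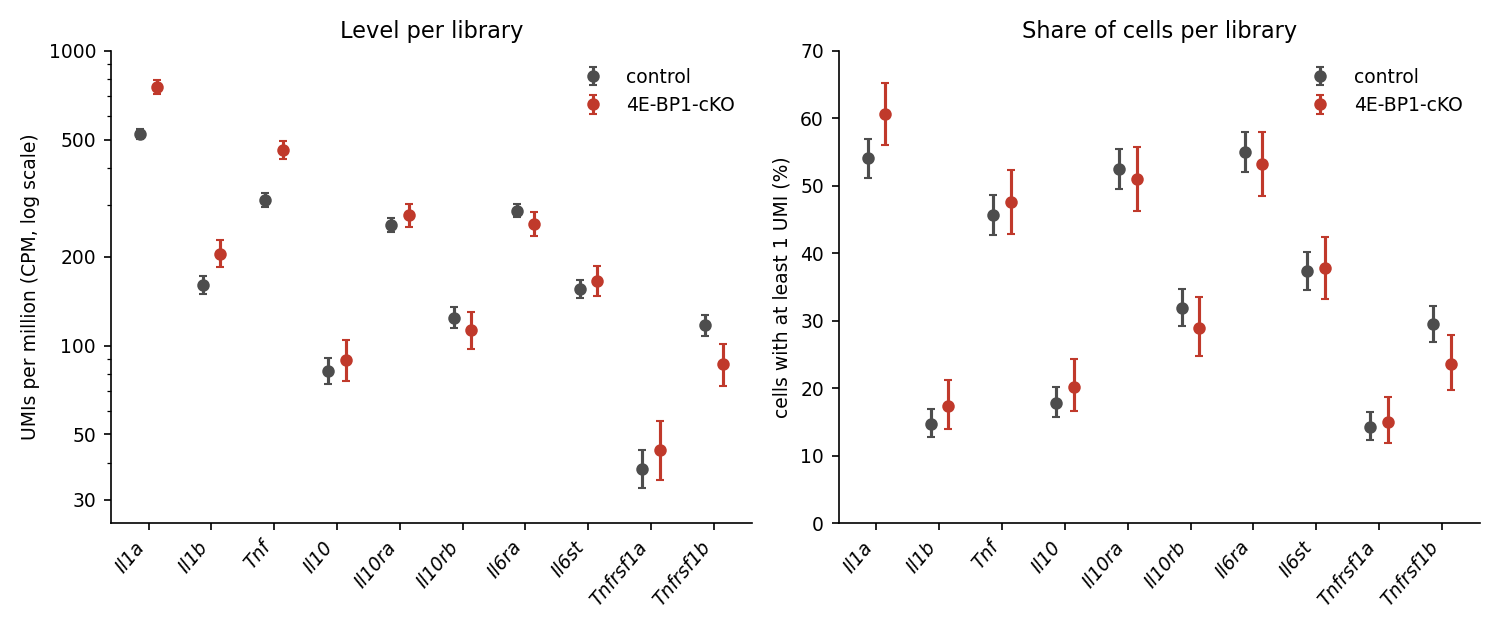
Level of each gene in CPM (log scale, left) and share of cells with at least 1 UMI (right) in the control and the 4E-BP1-cKO library; bars are 95% counting intervals of 1 library each. Il1a, Il1b and Tnf are higher and Tnfrsf1b lower in the 4E-BP1-cKO library, and the other genes overlap in level.

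Detection depends on depth, so these shares are not shares of expressing cells. When each cell was thinned to 872 UMIs, with 1058 cells of the control and 375 of the 4E-BP1-cKO library deep enough, Il1a was found in 27.0% (24.4% to 29.8%) and 38.9% (34.0% to 44.1%) of cells and Il1b in 4.91% (3.69% to 6.40%) and 9.33% (6.59% to 12.7%). At this equal depth the intervals of Il1a and Il1b did not overlap between the libraries. Tnf was found in 19.8% (17.4% to 22.3%) and 24.8% (20.5% to 29.5%), and Il10 in 71 and 30 cells, with intervals that overlapped. Few cells of other types were present to give a background from free RNA. The 4 control cells with 3 endothelial markers held 11 Il1a, 1 Il1b, 0 Tnf and 0 Il10 UMIs. The neutrophil gene S100a8 was found in 0.0872% of control cells and 0.674% of 4E-BP1-cKO cells. Oligodendrocyte markers ranged from Mog, in 0% and 0.449% of cells, to Mbp, in 10.2% and 14.8%. The amount of free RNA was not estimated from these genes.

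Which cells carried the genes was examined next by the share of a cell's UMIs on 86 ribosomal protein genes, a measure that does not use the 10 genes. Its median was 2.22% in the control and 3.53% in the 4E-BP1-cKO library. Cells were divided at 3%, a limit taken from earlier results of these data, which put 490 control cells (42.7%) and 234 4E-BP1-cKO cells (52.6%) in the ribosome-rich range. Of these cells 85 and 28 lay within 0.5 percentage points of the limit on either side. Ribosome-rich cells were deeper, with a median of 5513 UMIs against 2354 in the control and 4736 against 1964 in the 4E-BP1-cKO library. Values are therefore given also for cells of 1500 to 5000 UMIs, of which there were 600 and 193. This window narrowed the depth difference but did not remove it. Within it ribosome-rich cells had a median of 3681.5 UMIs against 2595.5 in the control, and 3619 against 2370 in the 4E-BP1-cKO library. These were 132 ribosome-rich and 468 other cells of the control, and 77 and 116 of the 4E-BP1-cKO library.

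Il1b was higher in ribosome-rich cells of both libraries. In the control it was at 224 CPM in ribosome-rich cells and 62.2 CPM in the others, a ratio of 3.60 (2.95 to 4.42). The 4E-BP1-cKO library had it at 251 and 109 CPM, a ratio of 2.29 (1.73 to 3.07). Among cells of 1500 to 5000 UMIs the ratios were 2.27 (1.63 to 3.16) and 1.502 (0.947 to 2.40), so that in the 4E-BP1-cKO library the interval then included 1. The cells with the most Il1b stood behind much of this. All 19 control cells and all 10 4E-BP1-cKO cells with at least 10 Il1b UMIs were ribosome-rich, and they held 55.1% and 53.1% of all Il1b UMIs. They were deep cells, with a median of 10102 and 8626 UMIs, and 18 of the 19 and 9 of the 10 also carried Il1a. With each cell capped at 10 Il1b UMIs, a setting added after the data were seen, the log2 ratio was 1.19 in the control and 0.67 in the 4E-BP1-cKO library.

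Il10 lay the other way in both libraries. In the control it was at 55.8 CPM in ribosome-rich cells and at 123 CPM in the others, which is 2.21 times higher (1.80 to 2.72) in cells under 3%. The 4E-BP1-cKO library had Il10 at 68.8 and 133 CPM, 1.93 times higher (1.39 to 2.68) in cells under 3%. The mean number of Il10 UMIs per cell was nearly the same in the 2 ranges, 0.335 and 0.350 in the control and 0.346 and 0.351 in the 4E-BP1-cKO library, and the difference is one relative to the total UMIs of the cell. Among cells of 1500 to 5000 UMIs Il10 was 2.87 times (1.84 to 4.70) and 1.98 times (1.19 to 3.39) higher in cells under 3%. After thinning to 872 UMIs, Il10 was found in 9.43% of control cells under 3% (7.28% to 11.98%) and in 2.61% of ribosome-rich cells (1.31% to 4.62%). In the 4E-BP1-cKO library these shares were 13.4% (8.67% to 19.4%) and 3.45% (1.40% to 6.98%). At this equal number of UMIs the intervals of the 2 ranges did not overlap in either library. Thinning evens out detection and not the original depth, with which the Il10 level moved. Under 1500, at 1500 to 5000 and over 5000 UMIs it was 252, 113 and 49.8 CPM in the control. In the 4E-BP1-cKO library it was 179, 132 and 56.8 CPM. The thinned shares therefore cannot separate the ribosomal share from the original depth.

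Il1a and Tnf did not follow a common pattern. Over all depths Il1a was 1.31 times (1.20 to 1.43) higher in ribosome-rich control cells and 1.20 times (1.06 to 1.36) higher in ribosome-rich 4E-BP1-cKO cells. Among cells of 1500 to 5000 UMIs the direction turned around, with ratios of 0.811 (0.679 to 0.964) and 0.752 (0.610 to 0.925). Tnf was 1.29 times (1.16 to 1.44) higher in ribosome-rich cells of the control and 1.79 times (1.503 to 2.13) higher in those of the 4E-BP1-cKO library. At 1500 to 5000 UMIs the Tnf ratio was 0.994 (0.810 to 1.21) in the control and 1.54 (1.18 to 2.01) in the 4E-BP1-cKO library. The difference between the libraries in this ratio was not tested.

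**Figure D2:**
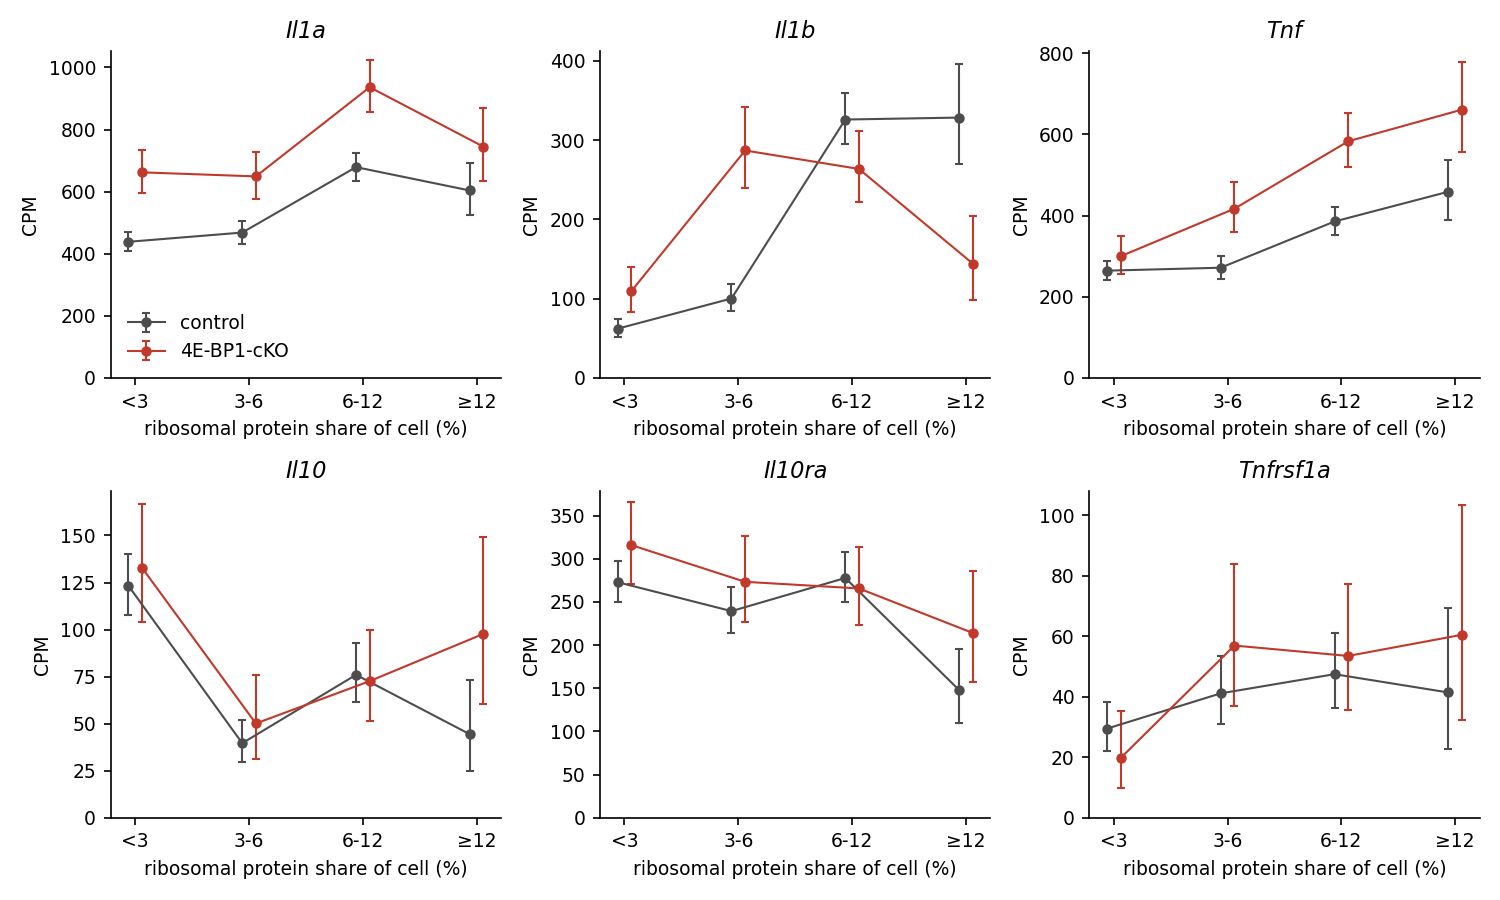
Level (CPM) of Il1a, Il1b, Tnf, Il10, Il10ra and Tnfrsf1a in 4 ranges of the ribosomal protein share of the cell, with 95% counting intervals; lines join the ranges of 1 library. In both libraries Il1b is lowest and Il10 highest under 3%, and in the control Il1b reaches 326 CPM at 6% to 12%.

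Over 4 ranges of the ribosomal share the control and the 4E-BP1-cKO library differed in where Il1b was highest. In the control Il1b was at 62.2, 100, 326 and 328 CPM from the lowest range to the highest. The 4E-BP1-cKO library had it at 109, 287, 264 and 144 CPM. Few cells held much of the Il1b, so a few of them can set the value of a range. Il10 was at 123, 39.6, 76.0 and 44.4 CPM in the control and at 133, 50.1, 72.6 and 97.7 CPM in the 4E-BP1-cKO library. The highest Il10 level was thus in the lowest range, with no steady order among the other 3.

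Over all depths, 5 of the 6 receptors had ratios of ribosome-rich to other cells between 0.766 and 1.04. Il10ra had a ratio of 0.899 (0.802 to 1.01) in the control and 0.820 (0.679 to 0.993) in the 4E-BP1-cKO library. Il10rb had 0.766 (0.650 to 0.903) and 0.932 (0.688 to 1.27), and Il6ra 0.901 (0.808 to 1.005) and 0.855 (0.702 to 1.04). Il6st had 0.945 (0.815 to 1.10) and 0.846 (0.661 to 1.09). Tnfrsf1a was the exception among the receptors, at 43.9 against 29.5 CPM in the control, 1.49 times higher (1.08 to 2.08) in ribosome-rich cells, and at 56.1 against 19.7 CPM in the 4E-BP1-cKO library, 2.84 times higher (1.49 to 5.96). The 4E-BP1-cKO value rests on 66 and 11 UMIs, and at 1500 to 5000 UMIs on 9 and 6, with a ratio of 1.71 (0.545 to 5.85). Tnfrsf1b had ratios of 0.886 (0.747 to 1.05) and 1.04 (0.728 to 1.498). Among cells of 1500 to 5000 UMIs several receptors were lower in ribosome-rich cells, with ratios of 0.719 (0.523 to 0.974) and 0.554 (0.351 to 0.857) for Il6st and 0.594 (0.407 to 0.848) and 0.623 (0.281 to 1.32) for Tnfrsf1b. Il10ra then had 0.743 (0.586 to 0.934) and 0.688 (0.498 to 0.944), Il10rb 0.630 (0.447 to 0.872) and 1.25 (0.751 to 2.08), and Il6ra 0.835 (0.678 to 1.02) and 0.922 (0.658 to 1.29).

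**Figure D3:**
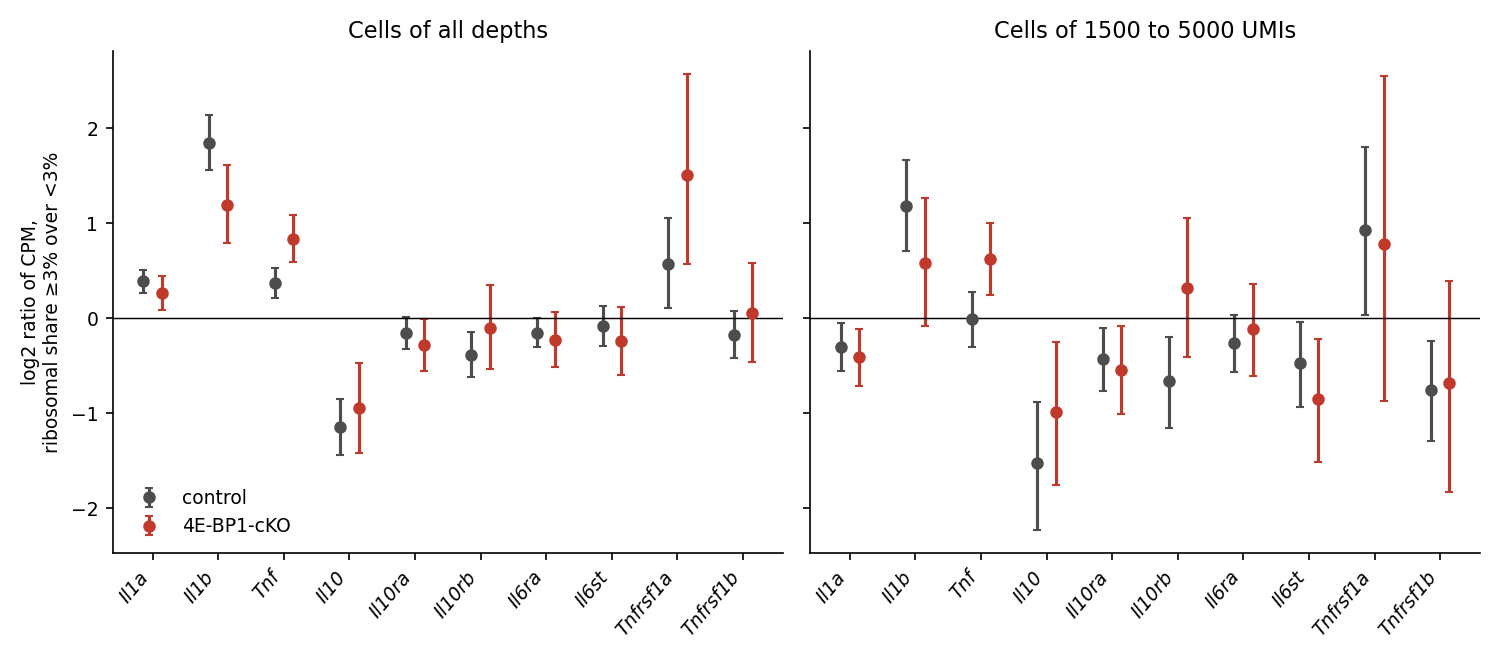
Log2 ratio of the level in cells with a ribosomal protein share of at least 3% over cells under 3%, for cells of all depths (left) and of 1500 to 5000 UMIs (right), per library with 95% counting intervals. Il1b lies above and Il10 below 0 in both libraries and both panels, and Il1a changes sides between the panels.

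Past a 2-fold difference between the ranges were Il1b (higher) and Il10 (lower) in the control, and Il1b and Tnfrsf1a (both higher) and no gene lower in the 4E-BP1-cKO library. Of all 11083 genes with at least 20 UMIs in the control, 18.0% were past 2-fold, 10.9% higher and 7.08% lower. In the 4E-BP1-cKO library it was 24.5% of 8022 genes, 14.3% higher and 10.2% lower. Counts of 2 of 10 genes in each library were therefore near the background.

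The share of UMIs on 20 early and ex vivo response genes, such as Fos, Jun and Egr1, moved with these ranges. It was 1.89% in cells under 3% and 2.88% in ribosome-rich cells of the control, and 2.10% and 3.50% in the 4E-BP1-cKO library. Except for Il1b in the control, carriers of the ligands had more of it than non-carriers in cells of 1500 to 5000 UMIs, with a median per cell of 1.93% against 1.73% for Il1a and 1.95% against 1.73% for Tnf in the control. In the 4E-BP1-cKO library the medians were 2.54% against 2.06% and 2.78% against 2.06%. For Il10 they were 1.92% against 1.79% and 2.89% against 2.15%, and for Il1b 1.80% against 1.81% and 2.70% against 2.18%. The part of these genes in the levels of the cytokines was not tested.

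Co-detection was then examined among cells of 1500 to 5000 UMIs, since deeper cells carry more of every gene. A log2 odds ratio above 0 means that carriers of 1 gene more often carried the other than non-carriers did, and over cells of all depths it was above 0 for all 45 pairs of the 10 genes in both libraries.

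Il10 was found in the same cells as the pro-inflammatory ligands, and with the widest gap for Il1a. In the control 24.1% of Il1a carriers held Il10 (19.4% to 29.5%), against 9.80% of non-carriers (6.71% to 13.7%). In the 4E-BP1-cKO library it was 32.2% (23.9% to 41.4%) against 10.7% (4.72% to 19.9%). The intervals of carriers and non-carriers did not overlap in either library. After thinning to 872 UMIs they overlapped in both, at 8.74% (5.74% to 12.6%) against 5.96% (4.395% to 7.87%) in the control and 11.6% (6.93% to 17.99%) against 5.68% (3.06% to 9.51%) in the 4E-BP1-cKO library. Tnf carriers held Il10 in 23.8% against 11.8% of non-carriers in the control and 29.8% against 18.2% in the 4E-BP1-cKO library. Il1b carriers held it in 19 of 76 control cells, against 15.6% of non-carriers, and in 32.3% against 22.2% of 4E-BP1-cKO cells. For the Il1b pairs, and for Tnf in the 4E-BP1-cKO library, the intervals overlapped.

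The share of cells with Il10 was higher in cells with at least 1 of the ligands Il1a, Il1b and Tnf than in cells with none. In control cells with 0, 1 and 2 of them, Il10 was found in 5.29%, 15.6% and 31.0% of 170, 263 and 142 cells, and in those with 3 in 7 of 25. For 0 to 3 of them in the 4E-BP1-cKO library it was found in 7.50%, 20.7%, 36.5% and 36.8% of 40, 82, 52 and 19 cells. The level of Il10 in these cells was 39.3, 98.3, 204 and 151 CPM in the control and 29.5, 127, 165 and 247 CPM in the 4E-BP1-cKO library. In this depth window both shares and levels were thus lowest in cells with none of the 3 ligands. In the control neither was higher with 3 of them than with 2. Over all kept cells the shares were again lowest with none, but the levels were not in the 4E-BP1-cKO library. There the level was 93.1, 101, 83.5 and 81.8 CPM for 0 to 3 ligands, against 44.6, 80.5, 104 and 68.5 CPM in the control. Depth moved along even within the depth window, from a median of 2526 UMIs in control cells with none to 3892 in those with 3. For 0 to 3 ligands in the 4E-BP1-cKO library the median depth was 2326, 2648, 3440 and 2726 UMIs. The median ribosomal share was 1.31% to 1.48% over the 4 groups of control cells, and 1.23%, 1.38%, 3.74% and 1.37% over those of the 4E-BP1-cKO library.

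**Figure D4:**
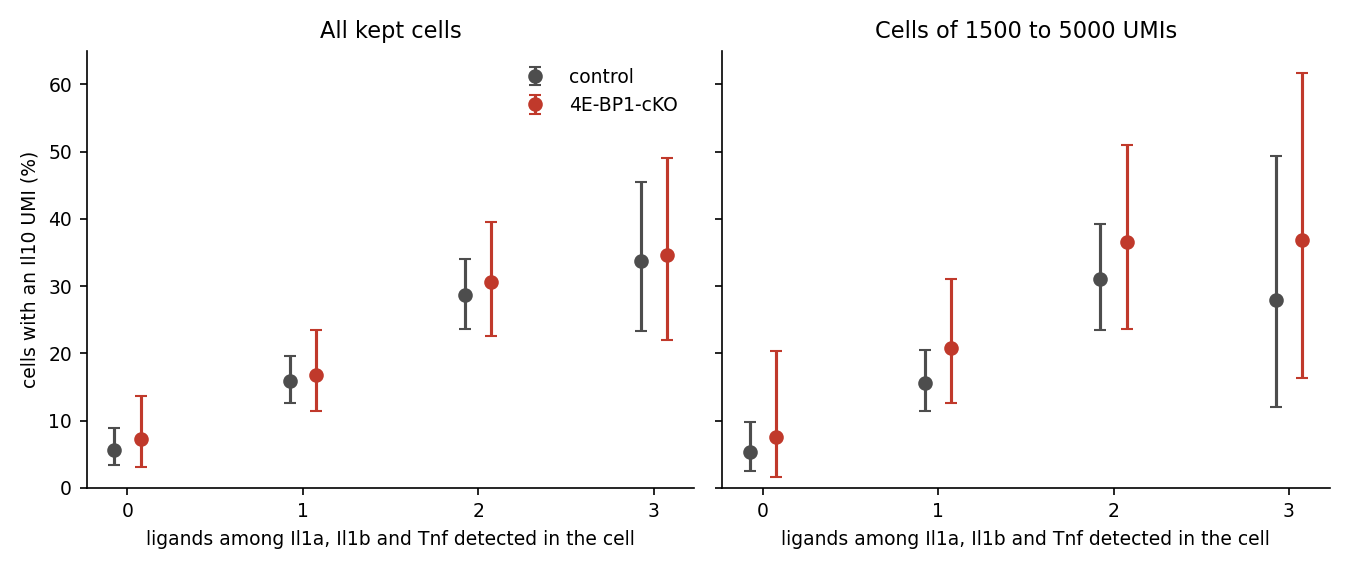
Share of cells with an Il10 UMI by the number of the ligands Il1a, Il1b and Tnf detected in the same cell, for all kept cells (left) and cells of 1500 to 5000 UMIs (right), with exact 95% binomial intervals. In the right panel the share is 5.29% and 7.50% in cells with none and 31.0% and 36.5% in cells with 2 of them, in the control and the 4E-BP1-cKO library, with wide intervals in cells with 3.

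In cells of 2000 to 3500 UMIs, a window added after the data were seen, with 306 and 97 cells, the log2 odds ratio of Il10 with Il1a was 1.64 for the control and 1.44 for the 4E-BP1-cKO library, where the wider one gave 1.54 and 1.93. With Tnf it was 0.89 and −0.22, against 1.22 and 0.92. After thinning, the pair of Il10 and Il1a had 0.61 and 1.12, and without Scrublet doublet calls it had 1.52 and 1.84. Within ribosomal ranges, the log2 odds ratio of Il10 with the 3 ligands was 0.86 to 1.37 in control cells under 3% and 0.52 to 2.67 in 4E-BP1-cKO cells under 3%. In ribosome-rich cells it was 1.13 to 2.34 in the control and −0.49 to 1.64 in the 4E-BP1-cKO library. The pair of Il10 and Il1a thus lay above 0 in each of these settings.

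The 3 pro-inflammatory ligands were each detected at a higher share in carriers of another than in non-carriers, but the intervals overlapped for all 3 pairs in both libraries. Il1b was present in 16.3% of Il1a carriers against 9.15% of non-carriers in the control and in 20.3% against 9.33% in the 4E-BP1-cKO library. Tnf was present in 45.2% of Il1a carriers against 38.9% and in 54.2% against 40.0%. Il1b carriers held Tnf in 47.4% against 41.2% of non-carriers in the control and 67.7% against 45.1% in the 4E-BP1-cKO library. The median log2 odds ratio of the 3 ligand pairs was 0.38 in the control and 1.24 in the 4E-BP1-cKO library. Over all kept cells, 73.9% of control and 75.1% of 4E-BP1-cKO cells held at least 1 of the 3 ligands, 6.71% (5.33% to 8.32%) and 11.7% (8.85% to 15.04%) held all 3, and 2.27% and 4.04% held all 3 with Il10.

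The receptors showed little co-detection at this depth. The median log2 odds ratio was 0.16 in the control and −0.10 in the 4E-BP1-cKO library over the 15 receptor pairs, and 0.18 and −0.01 over the 18 pairs of a pro-inflammatory ligand with a receptor. Of the 15 receptor pairs 4 were above and 2 below 0 in both libraries. Il10 carriers held Il10ra in 50.5% of control cells, against 47.1% of non-carriers, and in 60.9% against 49.0% of 4E-BP1-cKO cells. These intervals overlapped in both libraries. The libraries were not alike for Il10 and Il6st: Il10 carriers held Il6st in 31.7% (22.8% to 41.7%) against 29.5% (25.5% to 33.7%) of control cells, and in 19.6% (9.36% to 33.9%) against 38.8% (30.9% to 47.2%) of 4E-BP1-cKO cells, a difference that was not tested.

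**Figure D5:**
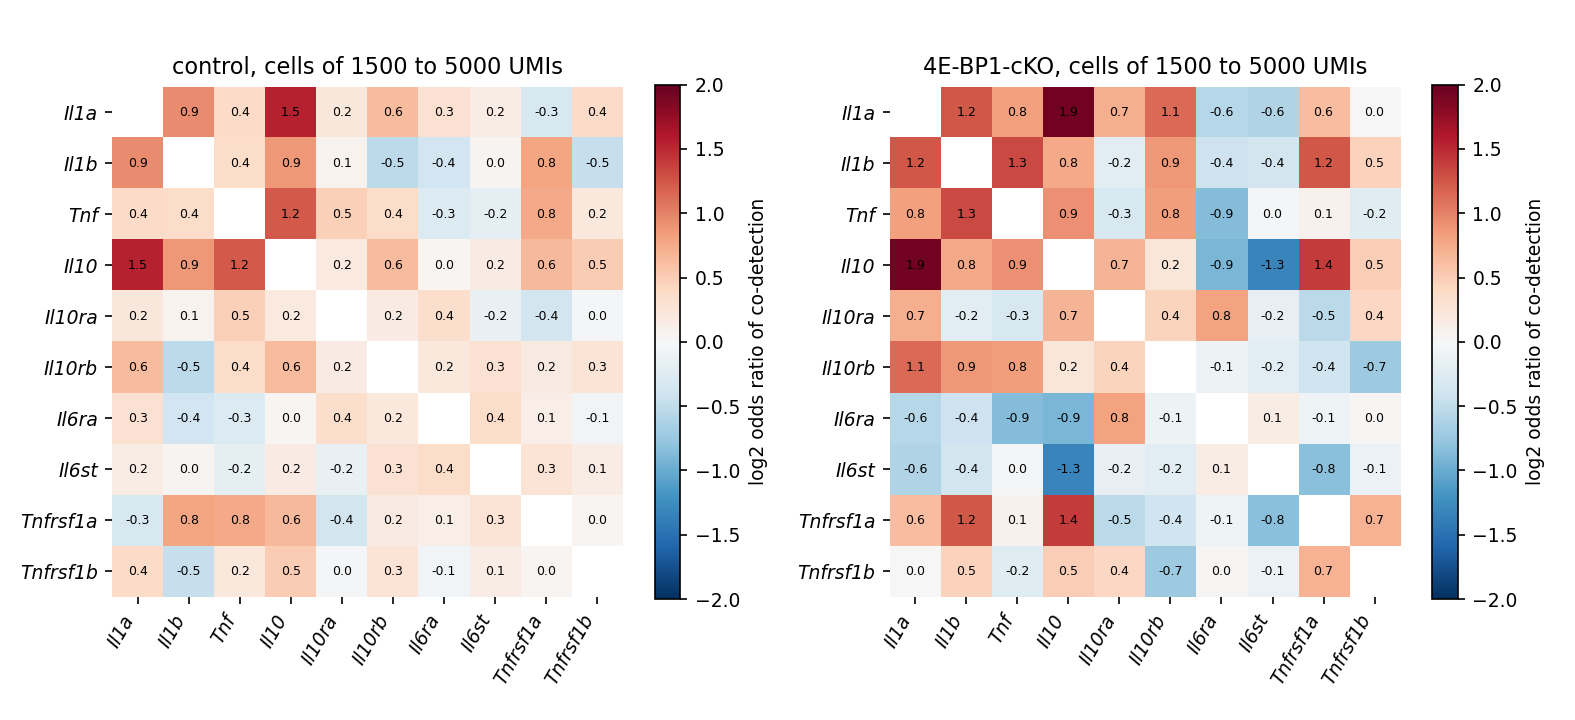
Log2 odds ratio of co-detection for each pair of the 10 genes among cells of 1500 to 5000 UMIs, in the control (left) and the 4E-BP1-cKO library (right); red is above 0 and blue below. The pairs of Il10 with Il1a, Il1b and Tnf are above 0 in both libraries, from 0.86 to 1.54 in the control and from 0.76 to 1.93 in the 4E-BP1-cKO library.

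Between the libraries, over all cells, the 3 pro-inflammatory ligands were higher in the 4E-BP1-cKO library, Il1b not in every range of the ribosomal share, and Il10 and most receptors overlapped in level. The level in the 4E-BP1-cKO library was 1.44 times (1.35 to 1.54) that of the control for Il1a, 1.28 times (1.12 to 1.45) for Il1b and 1.47 times (1.35 to 1.61) for Tnf. For Il1b 1 4E-BP1-cKO cell held 54 of the 356 UMIs, and the interval does not cover such a spread over cells. With each cell capped at 10 UMIs of the gene, a setting added after the data were seen, the ratios of all 10 genes stayed within their intervals. The ratio was 1.09 (0.899 to 1.32) for Il10, 1.08 (0.973 to 1.20) for Il10ra, 0.908 (0.769 to 1.07) for Il10rb, 0.902 (0.809 to 1.004) for Il6ra, 1.06 (0.923 to 1.22) for Il6st and 1.16 (0.876 to 1.52) for Tnfrsf1a. For Tnfrsf1b it was 0.738 (0.612 to 0.885). None of the 10 genes was past 1.5-fold, against 15.6% of the 11784 genes with at least 20 UMIs, of which 4.32% were higher and 11.3% lower. Each of the 10 genes had over 100 UMIs, and of the 7184 genes with at least 100 UMIs a smaller share, 494 genes, was past 1.5-fold. The median log2 ratio of the 10 genes was 0.12, and that of all genes −0.05.

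The library ratios varied with the cells they were taken over. In cells with a ribosomal share under 3% the ratio was 1.51 (1.33 to 1.71) for Il1a, 1.76 (1.27 to 2.42) for Il1b and 1.13 (0.946 to 1.35) for Tnf. In ribosome-rich cells it was 1.38, 1.12 (0.974 to 1.29) and 1.56 (1.41 to 1.73). The Il1b value of ribosome-rich cells joins unlike ranges: the ratio was 2.86 (2.23 to 3.68) at 3% to 6%, 0.809 (0.662 to 0.983) at 6% to 12% and 0.439 (0.285 to 0.659) from 12% up. By these counts Il1b was higher in the 4E-BP1-cKO library under 6% and lower from 6% up. Its UMIs were concentrated: 10 cells held 38.6% of them in the control and 53.1% in the 4E-BP1-cKO library, over all ranges. A few cells can therefore set the value of a range, and the intervals do not cover that spread. The difference between the ranges was not tested. Tnfrsf1b was lower in both ranges, with ratios of 0.670 and 0.784. By depth, cells under 1500 UMIs had ratios of 1.16 (0.851 to 1.56) for Il1a, 1.05 (0.434 to 2.36) for Il1b and 0.826 (0.547 to 1.22) for Tnf. At 1500 to 5000 UMIs they were 1.61, 1.63 and 1.43, and over 5000 UMIs 1.38, 1.18 and 1.56, with intervals above 1. For Tnfrsf1b the ratios over these depths were 1.08 (0.489 to 2.29), 0.488 (0.330 to 0.703) and 0.856 (0.679 to 1.07).

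The early and ex vivo response genes made up 2.50% of UMIs in the control and 3.05% in the 4E-BP1-cKO library. Among cells with under 2% of their UMIs on these genes, 573 control and 172 4E-BP1-cKO cells, the ratio of the 4E-BP1-cKO library to the control was 1.28 (1.11 to 1.47) for Il1a, 1.04 (0.758 to 1.41) for Il1b and 1.07 (0.879 to 1.30) for Tnf. Among the other 574 and 273 cells it was 1.40 (1.29 to 1.51), 1.20 (1.04 to 1.38) and 1.505 (1.36 to 1.66). In cells low in these genes the libraries thus differed beyond counting error for Il1a and not for Il1b or Tnf. This split was added after the data were seen. What the genotype, the animals, the digestion and the capture each contribute to a difference between 2 libraries cannot be told apart.

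Other genes of these pathways were read from fixed lists. Over all genes 4.32% were past 1.5-fold higher, 11.3% lower and 43.9% above 0, and the counts of these short lists stand beside that background. Of the IL-1 family and inflammasome list, 17 of 21 genes had at least 20 UMIs, and 2 were past 1.5-fold higher in the 4E-BP1-cKO library and 1 lower. Il1r2, the decoy receptor of IL-1, was at 34.0 CPM against 19.8 CPM in the control, a ratio of 1.72 (1.22 to 2.41). Il1rn, the IL-1 receptor antagonist, was at 19.0 against 12.1 CPM, a ratio of 1.58 (0.995 to 2.46). Il1rap, the accessory chain of the IL-1 receptor, was at 32.9 against 52.7 CPM, a ratio of 0.624.

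In the TNF signalling list 2 of 20 measured genes were higher and 0 lower. Traf2, an adaptor of TNF receptors, had a ratio of 1.58 (1.02 to 2.40), and Ltb, lymphotoxin-β, 2.01 (0.989 to 4.02) from 16 and 22 UMIs. Of 9 measured genes of IL-10 signalling 1 was past 1.5-fold: Socs3, the feedback inhibitor induced by IL-10 and IL-6 family cytokines, at 557 CPM in the 4E-BP1-cKO library and 355 CPM in the control, a ratio of 1.57 (1.45 to 1.70). Of 10 measured genes of the IL-6 family 1 was higher and 1 lower. Osm, oncostatin M, a ligand that signals through Il6st, was at 85.9 against 41.8 CPM, a ratio of 2.05 (1.65 to 2.55). Il27 had 4 and 23 UMIs, a ratio of 0.482 (0.121 to 1.41). Of 7 other measured cytokines 0 were past 1.5-fold.

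Of the 20 early and ex vivo response genes, 3 were past 1.5-fold higher and 2 lower in the 4E-BP1-cKO library, and 16 lay above 0. Ier2, an immediate early gene, had a ratio of 2.07 (1.92 to 2.23), Nfkbia, the NF-κB inhibitor, 1.65 (1.59 to 1.72) and Egr1, an early growth response factor, 1.55 (1.496 to 1.60). The heat shock genes Hspa1b and Hspa1a had ratios of 0.387 and 0.646. Within this list the early response genes and the heat shock genes past 1.5-fold thus lay on opposite sides.

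Between ribosomal ranges, 3 of 20 early and ex vivo response genes and 1 of 6 other cytokines were past 2-fold in the same direction in both libraries, each higher in ribosome-rich cells. None of the 15, 16, 9 and 7 measured genes of the IL-1, TNF, IL-10 and IL-6 lists was. Of all genes 10.9% and 14.3% were past 2-fold higher in the control and the 4E-BP1-cKO library, each taken singly. How many of all genes passed in both was not counted, so the list counts have no like background. The listed genes past 2-fold in both were Mif, the macrophage migration inhibitory factor, and the early genes Fos, Nfkbia and Egr1. Mif had a log2 ratio of 1.41 in the control and 2.17 in the 4E-BP1-cKO library. Fos had 1.43 and 1.53, Nfkbia 1.38 and 1.48, and Egr1 1.03 and 1.02. Il1b, with 1.83 and 1.19, was the member of the 10 genes that was past 2-fold in both.

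Genes raised in carriers of each ligand were ranked among 4886 genes with at least 200 UMIs, by the smaller of the 2 libraries' log2 ratios of carriers to non-carriers in cells of 1500 to 5000 UMIs. For Il1a the first were its genomic neighbours. Ckap2l, a spindle protein gene on the same strand, has its upstream end 2380 bases from the downstream end of Il1a. It was at 234 CPM in Il1a carriers and 19.0 CPM in non-carriers of the control, and at 212 and 43.2 CPM in the 4E-BP1-cKO library. Gm14023, a lncRNA gene on the opposite strand that overlaps 8218 bases of Il1a, was at 838 against 159 CPM and 805 against 197 CPM. Reads of Il1a and of these 2 genes may not be fully told apart. Next came Il1b, with log2 ratios of 1.53 and 1.84, Vcam1, a vascular cell adhesion molecule, with 1.29 and 2.91, and Il10 with 1.18 and 1.46. Il10 was thus among the first 5 of 4886 genes for Il1a carriers.

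For Il1b carriers the first 5 genes were Tnfsf13b, the B cell activating factor BAFF (1.20 and 1.13), Casp1, the protease that matures IL-1β (1.15 and 0.94), Dennd4b (0.99 and 1.01), Cdk2ap2 (0.98 and 1.17) and Atp5k (0.92 and 0.94). These rest on few UMIs. In this window the 4E-BP1-cKO library held from 15 (Casp1) to 29 (Tnfsf13b) UMIs of each, over 31 Il1b carriers and 162 other cells. For Tnf carriers they included Edn1, endothelin (1.48 and 1.06), Gm10634 (0.93 and 1.40), Bcl2a1d, an anti-apoptotic gene that NF-κB induces (0.90 and 1.63), and Nfkbia (0.86 and 1.36). Nfkbia was at 1164 CPM in Tnf carriers and 635 CPM in non-carriers of the control. For Il10 carriers the first were Slc24a1, a sodium-calcium exchanger (1.86 and 1.56), Stat5a, a cytokine-activated transcription factor (1.48 and 2.31), Raver2 (1.75 and 1.46), Ccdc138 (1.41 and 1.46) and Por, cytochrome P450 oxidoreductase (1.39 and 1.71). Stat5a was at 216 against 71.2 CPM in the control and 180 against 28.4 CPM in the 4E-BP1-cKO library. Genes past a log2 ratio of 1 in both libraries numbered 7 for Il1a, 1 for Il1b, 2 for Tnf and 15 for Il10. No intervals are given for these ratios, and Ccdc138 had 20 UMIs in the 4E-BP1-cKO cells of this window.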

How the data were processed

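Spinal microglia of 1 control and 1 4E-BP1-cKO library were analysed. UMI counts were used as deposited: the authors had run Cell Ranger 8.0.1 on mm10 (annotation release not given in the sources used here) and its cell calling, with no normalization. TRAP and imaging data were not analysed here, and the 3′ counts hold 1 UMI per molecule.

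Barcodes with over 300 genes and under 5% mitochondrial UMIs were kept, leaving 4803562 and 1734332 UMIs. The study also removed doublets, with scDblFinder, and reported fewer cells than were kept here. Doublets were not removed here, and as an alternative Scrublet (scanpy 1.11.5) calls were removed, 4 in the control and 11 in the 4E-BP1-cKO library, where 11.2 and 1.69 were expected. More cells remained after this than the study reported, so this setting does not stand in for the study's doublet removal. UMIs were summed over cells and divided by their total (CPM). Intervals are exact Poisson for CPM, conditional Poisson for ratios and Clopper-Pearson for shares. Log2 ratios used a pseudocount of 1 CPM, except those of carriers to non-carriers, which used 10 CPM. Thinning kept 872 UMIs per cell, the 10th percentile, so that 89 and 70 shallower cells were not used. The analysis used scipy 1.17.1, numpy 2.4.6 and pandas 2.3.3 in Python 3.11.15, and edgeR 4.0.16 in R 4.3.3 for TMM factors. The statistics were tested on simulated Poisson and binomial counts. That test does not cover the wider spread of ligand UMIs over cells, so it does not show how the intervals behave under it.

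A gene was called past 1.5-fold between libraries or 2-fold between ribosomal ranges, with at least 20 UMIs. Genes named are the 10 members, genes of the pathway lists so called (between ranges in both libraries) and, for each ligand, the 5 genes most raised in carriers, of which 1 is not reported here. Tmem119, Eif4ebp1, S100a8, Mbp, Mog and the markers at 0 are named besides. The 10 genes, the lists and the 3% limit were chosen with earlier results of these data known. The alternatives were other mitochondrial, gene number and UMI limits, doublet removal, thinning, other totals, pseudocounts, ribosomal limits and depth windows.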

Additional observations from a re-analysis of the deposited data

Results flagged for a closer look

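Tnfrsf1b lay on opposite sides of 0 in the 2 libraries when ribosome-rich cells were set against the others. Its log2 ratio was −0.17 in the control and 0.052 in the 4E-BP1-cKO library. Both intervals included 0, and the difference between the libraries was not tested. In cells of 1500 to 5000 UMIs both values were below 0, at −0.74 and −0.67.

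Barcodes that failed the filters held Il10 in the control library. In 69 such barcodes, 65 of them with a high mitochondrial share and 6 with few genes (some with both), 20 Il10 UMIs gave 181 CPM, which is 2.20 times (1.33 to 3.45) the 82.0 CPM of kept cells. The 29 such barcodes of the 4E-BP1-cKO library held 0 Il10 UMIs, which allows a ratio of up to 1.17. The control barcodes outside the filters were shallow, with a median of 993 UMIs. Kept control cells had Il10 at 252 CPM under 1500 UMIs, 113 CPM at 1500 to 5000 UMIs and 49.8 CPM over 5000 UMIs. The ratio of 2.20 is therefore not one between cells of like depth. Il1a was at 0.969 times (0.730 to 1.26) the level of kept cells in the control barcodes and at 0.523 times (0.285 to 0.881) in those of the 4E-BP1-cKO library. No group held 4 or more libraries, so no library could be checked for standing apart.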

How the results depend on the processing

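No paired analysis was possible because each genotype had 1 library, and no library could be left out. Of the log2 ratios between ribosomal ranges 208 stayed within the counting error of the reported value, 29 moved and 3 reversed. Between the libraries 113 stayed and 7 moved, and of the co-detection values 67 stayed, 4 moved and 1 reversed. Reversed counts a value whose reported counting interval excluded 0 and whose sign changed. For co-detection that interval is the one of the log2 odds ratio, which is not printed above. Reversed were Il1a in cells of 1500 to 5000 UMIs (−0.30 in the control, −0.41 in the 4E-BP1-cKO library), Tnf in the control there (−0.0086), and Il1b with Il10 in the control after thinning (−0.046). Sign changes of values whose reported interval included 0 are among the moved, if they left that interval: Tnf with Il10 in cells of 2000 to 3500 UMIs, Tnfrsf1b in cells of 1500 to 5000 UMIs and Il10rb as the mean of the cells' CPM, in the 4E-BP1-cKO library, and Il10 between the libraries. The other sign changes stayed within it. Where not stated otherwise, the cause was not tested.

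Between ribosomal ranges, the same depth window gave 1.17 for Il1b in the control and 0.58 in the 4E-BP1-cKO library, and in the control −1.50 for Il10, −0.43 for Il10ra and −0.66 for Il10rb. It gave −0.47 and −0.85 for Il6st and −0.74 and −0.67 for Tnfrsf1b. Thinning gave −2.33 and −2.36 for Il10, 1.08 and 0.55 for Tnfrsf1a, 0.084 and 0.14 for Tnf and −0.026 for Il10rb in the control. A ribosomal limit of 2% gave 0.14 for Il1a, and one of 5% gave 0.70 for Tnf and −0.52 for Il10, all in the control. A cap of 10 UMIs per cell gave 0.090 and 0.070 for Il1a and 1.19 and 0.67 for Il1b, which by construction takes UMIs only from the cells with most. The mean of the cells' CPM gave 0.25 and 0.45 for Il1a, 1.38 for Il1b, 0.20 for Tnf and −0.31 for Il6st in the control, and 0.48 for Il10rb in the 4E-BP1-cKO library.

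Between the libraries, cells with under 2% early response UMIs gave 0.35 for Il1a, 0.058 for Il1b, 0.10 for Tnf, −0.31 for Il10 and 0.30 for Il10ra, thinning gave 1.12 for Il1b and the mean of the cells' CPM 0.40 for Tnf. For co-detection, thinning gave 0.61 for Il1a with Il10 and 0.41 for Tnf with Il10 in the control, and cells of 2000 to 3500 UMIs gave 4.34 for Il1a with Il1b and −0.22 for Tnf with Il10 in the 4E-BP1-cKO library. With at least 100 UMIs, 494 genes in place of 1841 were past 1.5-fold between the libraries. Past 2-fold between ranges were 932 in place of 1998 and 689 in place of 1966. Fewer genes were tested, 7184, 6169 and 3079, and the share of them past the fold was also lower in each comparison. The cap, the mean of the cells' CPM, the split by early response genes, the narrower window and the restriction to 1073 and 407 cells with microglial markers were chosen after seeing the data. Depth limits the shares of cells most: the 20 thinned shares all moved, and no share was corrected for free RNA.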
